A study of Homo sapiens with 6 samples.

Results

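The snoRNA host genes were followed in 6 RNA-seq libraries of the line labelled NTera-2 (NT2), which was derived from a human testicular embryonal carcinoma. They were taken as every gene with a symbol made of SNHG and a number, together with GAS5, DANCR, ZFAS1, EPB41L4A-AS1, TAF1D and RACK1. This gave 34 of the 58051 genes in the table, of which 32 are counted here as noncoding and 2, TAF1D and RACK1, code for proteins. SNHG32, which GENCODE 29 types as protein-coding under an older name, is noncoding in RefSeq and was counted so. The titles name 3 mimic libraries, of cells that received piR-36249 mimics (a piRNA is a small RNA best known from the germ line), and 3 scramble libraries as the control, with no other agent or allele. A knockdown of this piRNA is named instead in the genotype field and in the series' design text, so the groups are called mimic and scramble after the titles, and every difference below is mimic minus scramble. No label ties the libraries of a group to separate cultures, so the p-values reflect the spread among these libraries alone, and that spread may be technical.

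Small nucleolar RNAs (snoRNAs) guide chemical changes on ribosomal and spliceosomal RNA, box C/D snoRNAs for 2′-O-methylation and box H/ACA snoRNAs for pseudouridylation. Most human snoRNAs lie in introns of a host gene and are cut free from the spliced-out intron, while the host's joined exons have their own fate. Many noncoding hosts give spliced RNAs that are translated over short reading frames and removed by nonsense-mediated decay, and several start with a run of pyrimidines, the 5′TOP, which is also the start of ribosomal protein mRNAs and ties translation to growth signals. The level of a host RNA is therefore no measure of its snoRNAs.

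Levels are in FPKM, reads scaled to gene length and library depth by the authors. A gene was tested where its mean over the 6 libraries was at least 0.5 FPKM, with limma on log2(FPKM + 1) over 12912 genes and Benjamini-Hochberg adjustment at 0.05. Fold changes are on that log2 scale, which understates the change of low genes. Recovered depth was 48.0 to 62.7 M reads per library, at which 10 reads on 1 kb of exon are worth 0.159 to 0.208 FPKM. Of 12 genes known from embryonal carcinoma cells 10 had a mean under 0.5 FPKM, with NANOG, SOX2, SALL4, TDGF1 and L1TD1 listed at 0 in every library, so the labelled cell type was not borne out by its defining genes. The sum of that list was 321.2 to 364.8 FPKM with mimic and 256.9 to 303.7 with scramble, nearly all of it from PODXL (246.7 to 349.0 FPKM over the 6 libraries), a sialomucin that endothelial cells also express, with LIN28B at 9.94 to 15.6. Of 10 endothelial genes 7 were above 1 FPKM in every library, and their sum was 686.4 to 747.9 FPKM with mimic and 574.0 to 616.5 with scramble. All 6 fibroblast genes and 3 of 5 neural genes had a mean under 0.5 FPKM. The part of these differences in the results below was not tested, and in bulk RNA fewer cells of a type and less RNA per cell cannot be told apart.

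Most of the snoRNA host genes that could be tested were lower with mimic. Of the 34, 25 passed the filter on low values, 21 of them fell, none rose and 4 did not pass the test. Among all tested genes 16.8% were called lower and 18.7% higher (35.5% in either direction). At an unadjusted p under 0.05, 22 of the 25 were lower and 0 higher with limma, and voom on recovered reads called 21 lower and 0 higher. The median log2 fold change was -0.39, beside 0.0025 over all tested genes. In 21 of the 25 every mimic library lay below every scramble library, and in 0 every mimic library lay above, patterns found in 23.2% and 26% of all tested genes. The 25 lie on 12 chromosomes.

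Printed first are the RefSeq transcription starts of some of these genes, because the start is the sequence feature by which several of them are known. Each run covers 15 bases before the start and 15 from it, 5′ to 3′ on the gene's strand, from the RefSeq promoter table on GRCh38.p14. Capitals mark a C followed by at least 4 pyrimidines that begins at the start or within 5 bases on either side of it, with the pyrimidines that follow. The printed starts are a part of the hosts, mostly ones with this run, and do not show how it goes with the change. GAS5, SNHG1, SNHG3, SNHG10, SNHG29 and SNHG30 fell without the run at this start and are not printed. Nor is SNHG20, which lacks it and did not pass. Some GENCODE 29 transcripts of GAS5 (6 of 29), SNHG29 (6 of 30), SNHG3 (1 of 3) and SNHG1 (1 of 25) do begin with it. No such transcript is annotated for DANCR, SNHG7, SNHG17 or SNHG32, whose RefSeq starts were counted with the run at or near them. The counts below cover every tested host with a start.
SNHG16 (chr17:76557749-76557778, plus strand): cgcaggggcggtctcgcgttCTTTTCgagg
DANCR (chr4:52712379-52712408, plus strand): tcggctgcgcgccccgCCCTTgcccagagt
SNHG4 (chr5:139274086-139274115, plus strand): ctcggctcccggctgCCCTTTCCCCTCCgg
SNHG5 (chr6:85678719-85678748, minus strand): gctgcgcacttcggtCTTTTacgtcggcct
SNHG12 (chr1:28581859-28581888, minus strand): tcgcggcttcagcgCCCTTTCTCCCCgccg
ZFAS1 (chr20:49278627-49278656, plus strand): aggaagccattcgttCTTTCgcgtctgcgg
SNHG32 (chr6:31834901-31834930, plus strand): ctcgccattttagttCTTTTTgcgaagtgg
RACK1 (chr5:181243892-181243921, minus strand): ggggggcttttCTCTCTCTCTTTCactgca
TAF1D (chr11:93741481-93741510, minus strand): acggaaatagccaaCCCTTTTCTTCCgcac
SNHG19 (chr16:2155344-2155373, minus strand): ctcgcccgcccctgtCTTTTCggggtcgag
SNHG26 (chr7:22854225-22854254, plus strand): ccttttaaacttgatctccgcagtgccctc
SNHG11 (chr20:38446639-38446668, plus strand): gcgccgctctaggctgcagccgcgccccca
EPB41L4A-AS1 (chr5:112160511-112160540, plus strand): tggactcatgaattctgtcgggtcccaaaa
The table held 30 of the 34 hosts and 23 of the 25 tested ones, SNHG6 and SNHG15 not among them. A C with 4 pyrimidines exactly at the start was found in 8 of these 23 (34.8%), in 16.9% of 237 starts of tested coding hosts and in 4.07% of all 35116 promoters. Within 5 bases of the start it was found in 13 of 23 (56.5%), in 34.2% of the coding host starts and in 21.1% of all promoters. These counts are given as a description, and the difference between hosts with and without the run was not tested. With it exactly at the start the median log2 fold change was -0.32 and 7 of 8 fell, without it the median was -0.39 and 12 of 15 fell. Within 5 bases the medians were -0.41 with the run (12 of 13 fell) and -0.30 without (7 of 10 fell). The E-box CACGTG, a palindrome and thus the same on either strand, was in the 300 bases around the start of 2 of the 23, SNHG7 and SNHG30 (8.70%, beside 7.26% of all promoters). A match is a run of letters in an annotated window and does not show which start these cells used.

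**Figure D1:**
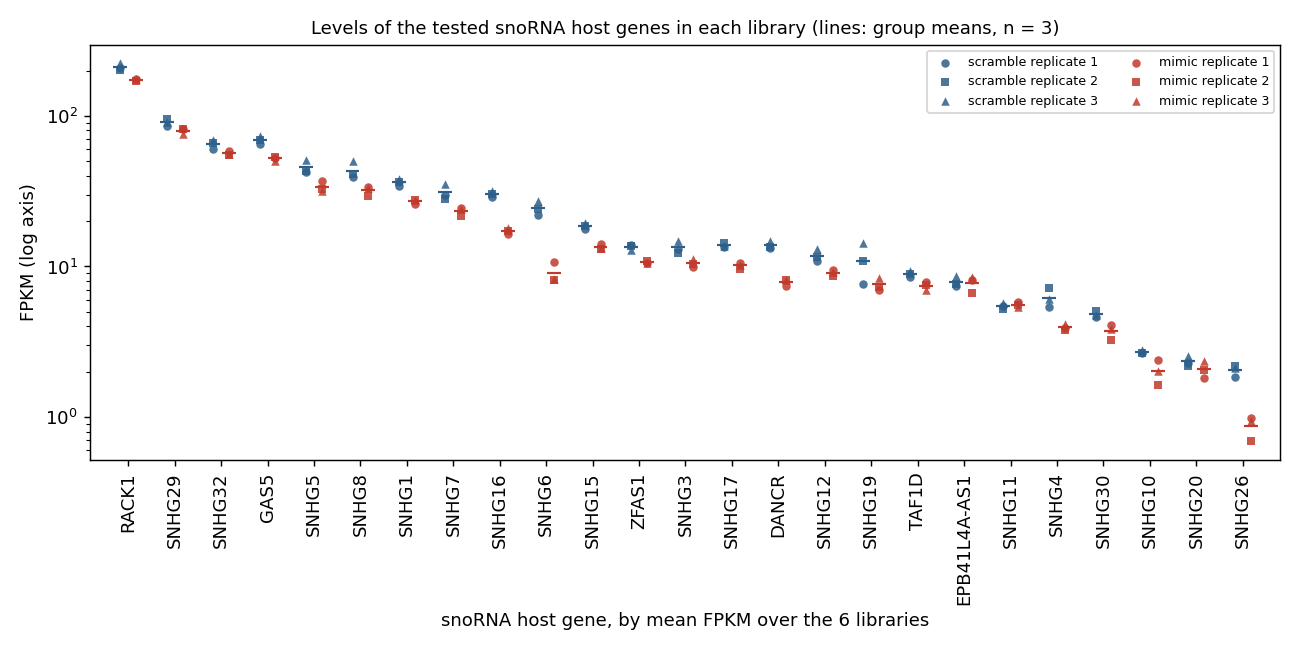
FPKM on a log axis for each of the 25 tested snoRNA host genes, ordered by mean level, with 1 point per library (3 mimic, 3 scramble) and lines at the group means. RACK1, SNHG29, GAS5 and SNHG32 stand highest, and in 21 of the 25 genes all mimic points lie below all scramble points.

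SNHG6 had the largest change. This host of a box C/D snoRNA (ENSG00000245910, chromosome 8, 66921684 to 66926398, minus strand, GRCh38) measured 10.7, 8.09 and 8.26 FPKM in mimic replicates 1 to 3 and 21.99, 24.0 and 27.3 FPKM in scramble replicates 1 to 3. The highest mimic library was under every scramble library by a wide margin. The means were 8.998 ± 1.44 and 24.4 ± 2.68 FPKM (SD, n = 3 each), a ratio of 0.368, and the log2 fold change was -1.35 (SE 0.110, adjusted p = 0.00012). The authors' deposited table gave SNHG6 a log2 fold change of -1.45 with an adjusted p of 1.9e-37. Its test statistic had the opposite sign to the fold change in all 401 genes of that table, so its direction was read from the FPKM values.

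SNHG16, whose introns hold box C/D snoRNAs of the SNORD1 family, followed (ENSG00000163597, chromosome 17, 76557766 to 76565348, plus strand). It measured 16.4, 17.1 and 17.9 FPKM with mimic and 29.04, 30.1 and 31.9 FPKM with scramble. The libraries within a group lay close together and the groups were far apart. The log2 fold change was -0.79 (SE 0.050, adjusted p = 3.9e-05), a ratio of 0.564. Its exons partly overlap those of a gene on the other strand, which leaves these values uncertain, as described below.

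DANCR, a noncoding RNA named for its part in holding back differentiation and the host of SNORA26, lies on chromosome 4 from 52712404 to 52720351 on the plus strand (ENSG00000226950). It measured 7.43, 8.18 and 8.07 FPKM with mimic and 13.3, 13.5 and 14.7 FPKM with scramble, again with no overlap. The log2 fold change was -0.74 (SE 0.055, adjusted p = 7.4e-05), a ratio of 0.570.

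SNHG26, the host of SNORD93, was among the lowest tested hosts (ENSG00000228649, chromosome 7, 22854178 to 22861579, plus strand). It measured 0.980, 0.697 and 0.944 FPKM with mimic and 1.86, 2.18 and 2.11 FPKM with scramble, so each mimic value was near the level at which the added 1 on the log scale matters. The log2 fold change of -0.70 (SE 0.081, adjusted p = 0.00057) was smaller than the ratio of means, 0.427, would give. The authors' deposited table gave SNHG26 -1.24 (adjusted p = 8.6e-12). SNHG6 and SNHG26 were the only snoRNA host genes of the 34 in that table, which lists just genes past an absolute log2 fold change of 1 and holds as lower 0.598% of genes with any value above 0.

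The next 4 called hosts by size changed less, and all kept the groups apart. SNHG4 measured 3.88, 3.79 and 4.17 FPKM with mimic and 5.35, 7.15 and 6.12 FPKM with scramble. Its first scramble library was the closest to the mimic ones, and the log2 fold change was -0.54 (SE 0.089, adjusted p = 0.0029). SNHG15 measured 14.0, 13.1 and 13.2 FPKM with mimic and 17.8, 18.6 and 19.5 FPKM with scramble. Its groups were tight on both sides, and the log2 fold change was -0.44 (SE 0.048, adjusted p = 0.00044). SNHG5, host of SNORD50 snoRNAs, measured 36.7, 32.7 and 31.5 FPKM with mimic and 42.3, 42.7 and 51.2 FPKM with scramble. SNHG8, host of SNORA24, measured 33.6, 29.4 and 33.2 FPKM with mimic and 39.1, 40.9 and 50.01 FPKM with scramble. In both the third scramble library stood above the other two, and both had a log2 fold change of -0.42 (SE 0.084 and adjusted p = 0.0068 for SNHG5, SE 0.093 and adjusted p = 0.011 for SNHG8).

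The 3 most abundant hosts were among those that passed with the smallest changes. RACK1, a protein of the small ribosomal subunit that also scaffolds kinase signalling, is a coding host and had the highest level. It measured 174.3, 171.2 and 175.5 FPKM with mimic and 206.7, 200.7 and 222.6 FPKM with scramble. The mimic libraries lay within a narrow band below all scramble libraries, and the log2 fold change was -0.27 (SE 0.046, adjusted p = 0.0034, ratio 0.827). SNHG29 measured 81.3, 81.7 and 75.6 FPKM with mimic and 85.5, 94.9 and 91.4 FPKM with scramble. Here the gap between the groups was smaller than the spread inside the scramble group, and the log2 fold change was -0.19 (SE 0.052, adjusted p = 0.027). SNHG32 measured 58.9, 55.3 and 55.6 FPKM with mimic and 60.6, 66.5 and 69.1 FPKM with scramble. Its highest mimic and lowest scramble libraries nearly touched, and the log2 fold change was -0.20 (SE 0.055, adjusted p = 0.024). SNHG29 and SNHG32 each lost the call when a single library was left out: SNHG29 without mimic replicate 3 or scramble replicate 2 or 3, SNHG32 without replicate 2 or 3 of either group, with adjusted p up to 0.0915 and 0.0798.

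TAF1D, the other coding host, is a subunit of the SL1 factor that starts ribosomal RNA transcription. It measured 7.86, 7.53 and 6.99 FPKM with mimic and 8.48, 8.95 and 9.35 FPKM with scramble. The groups did not overlap, and the log2 fold change was -0.23 (SE 0.056, adjusted p = 0.015). The call was just lost without mimic replicate 3 (adjusted p = 0.0524).

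The other 9 hosts that fell spanned log2 fold changes of -0.41 to -0.30. GAS5, a growth-arrest RNA known as a 5′TOP host although its start in the RefSeq table holds no such run and was counted without it, measured 52.1 ± 1.42 FPKM with mimic and 69.1 ± 4.05 with scramble (log2 -0.40, adjusted p = 0.00079). SNHG1 measured 27.0 ± 0.964 and 36.3 ± 1.91 FPKM (-0.41), SNHG17 10.2 ± 0.476 and 13.8 ± 0.458 (-0.41) and SNHG7 23.4 ± 1.55 and 31.0 ± 3.74 (-0.39). SNHG12 (-0.34), SNHG3 (-0.32), ZFAS1 (-0.30), SNHG10 (-0.30) and SNHG30 (-0.30) completed the group. Of these SNHG10, at 2.02 ± 0.388 FPKM with mimic and 2.71 ± 0.0742 with scramble, was the least stable. Leaving out mimic replicate 2 or 3, or any scramble library, ended its call, with adjusted p up to 0.127. SNHG30 lost it without scramble replicate 2 (adjusted p = 0.0554).

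The 4 hosts that did not pass the test were of different kinds. SNHG19 measured 7.03, 7.36 and 8.41 FPKM with mimic and 7.69, 10.8 and 14.3 FPKM with scramble. Its scramble libraries differed widely and the first lay inside the mimic range, so that the log2 fold change of -0.44 had an adjusted p of 0.0965. Without scramble replicate 1 the value was -0.65 (adjusted p = 0.0091) and without scramble replicate 3 it was -0.24, and at 342 bases its exons are the shortest of the 25. SNHG20 measured 1.83, 2.07 and 2.35 FPKM with mimic and 2.30, 2.20 and 2.56 with scramble (log2 -0.12, SE 0.078). EPB41L4A-AS1, host of SNORA13, measured 8.08, 6.66 and 8.53 FPKM with mimic and 7.39, 7.62 and 8.61 with scramble (log2 -0.02, SE 0.090). SNHG11 measured 5.80, 5.54 and 5.42 FPKM with mimic and 5.45, 5.24 and 5.73 with scramble (log2 0.02, SE 0.050). In these 3 the groups overlapped.

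**Figure D2:**
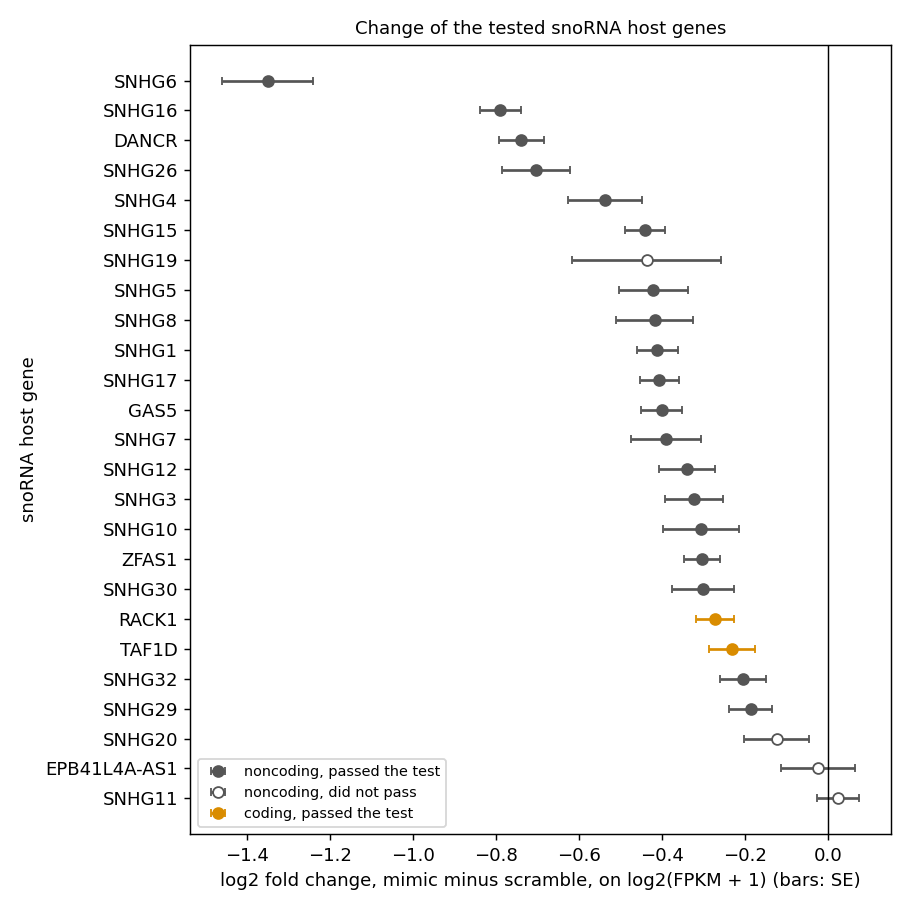
Log2 fold change, mimic minus scramble on log2(FPKM + 1), of each tested snoRNA host gene with its SE as a bar, noncoding and coding hosts in separate colours and open points for those that did not pass the test. SNHG6 stands apart at -1.35, most hosts lie between -0.54 and -0.19, and SNHG11 and EPB41L4A-AS1 lie at 0.02 and -0.02.

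Another 9 hosts had a mean under 0.5 FPKM and were not tested. SNHG18 was listed at 0 in every library. SNHG25 (0.361 and 0.584 FPKM with mimic and scramble), SNHG21 (0.457 and 0.482) and SNHG9 (0.424 and 0.454) were just under the filter, the lowest tested mean being 1.46 and the highest untested one 0.473 FPKM. SNHG14, the long host on chromosome 15 with 84 snoRNA genes inside it, measured 0.0658 ± 0.0035 FPKM with mimic and 0.0922 ± 0.0065 with scramble, from 131 to 252 reads per library, with no overlap between the groups. SNHG14 did not pass in limma when the filter was dropped (adjusted p = 0.256). The added 1 shrinks its log2 fold change there to -0.04, beside a ratio of means of 0.714, so that fit could hardly call it. SNHG31, SNHG22, SNHG28 and SNHG27 were lower still.

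The libraries were not equal in their part of these differences. Scramble replicate 3 was the highest of its group in 19 of the 25 tested hosts (76%), and the highest of its group in 36.1% of all tested genes. Scramble replicate 1 was the lowest of its group in 18. The FPKM of the 23 tested noncoding hosts summed to 436.4, 418.7 and 422.3 with mimic and to 527.2, 559.4 and 603.0 with scramble, so even the lowest scramble library exceeded the highest mimic one. GAS5 made up 12.2 ± 0.408% of the sum with mimic and 12.3 ± 0.110% with scramble. Without scramble replicate 3 the median log2 fold change of the tested hosts was -0.31 in place of -0.39, and 18 of the 25 fell. With every library rescaled to the same sum 21 fell. Over all tested genes 3998 and 4398 passed in these settings, in either direction, against 4584.

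The 2 coding hosts fell by less than most noncoding ones: 19 of 23 noncoding hosts fell with a median of -0.40, and both coding hosts fell with a median of -0.25. With 2 genes no more can be said, so coding hosts were also taken from the annotation as protein-coding genes of GENCODE 29 that hold a snoRNA or scaRNA gene on their own strand, a set chosen with earlier results known. Of the 269 genes so found, 200 were tested, 57 fell and 22 rose (28.5% and 11%, beside 16.8% and 18.7% of all tested genes), with a median of -0.09. The 28 tested ribosomal protein genes among them had 8 lower and 0 higher (14 and 0 at an unadjusted p under 0.05 with limma, 14 and 0 with voom) and a median of -0.17. The other 172 had 49 lower, 22 higher and a median of -0.06. Among the 154 tested coding hosts of a snoRNA with a SNORD, SNORA or SCARNA name 54 fell and 13 rose, with a median of -0.13. The noncoding and coding hosts thus had different medians and shares, and the difference between them was not tested.

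**Figure D3:**
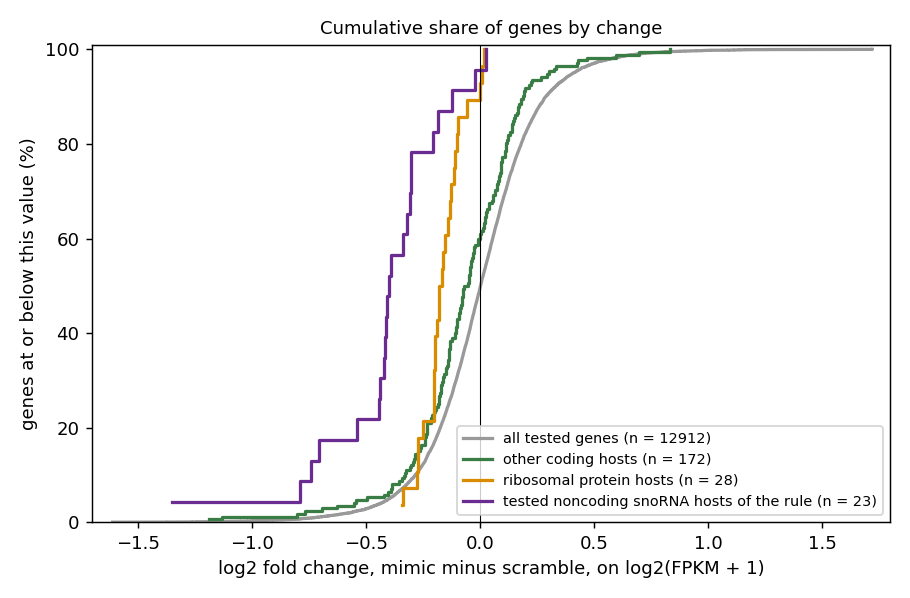
Cumulative share of genes, in percent, at or below each log2 fold change, mimic minus scramble on log2(FPKM + 1). Curves are for the tested noncoding snoRNA hosts, the ribosomal protein genes among the annotated coding hosts, the other annotated coding hosts and all tested genes. The noncoding hosts have a median of -0.40, the ribosomal protein hosts -0.17, the other coding hosts -0.06 and all tested genes 0.0025.

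The coding hosts with the largest falls were not ribosomal. AMMECR1, host of SNORD96B, measured 1.93, 1.92 and 1.98 FPKM with mimic and 5.81, 5.85 and 5.44 with scramble, a wide separation with a log2 fold change of -1.19. AP1B1, an adaptor subunit of clathrin coats and host of SNORD125, measured 8.11, 8.16 and 7.92 FPKM with mimic and 19.5, 18.1 and 19.0 with scramble (-1.13). ATP5F1B, the catalytic subunit of ATP synthase and host of SNORD59A, measured 301.0, 299.5 and 297.5 FPKM with mimic and 516.5, 515.2 and 536.0 with scramble (-0.80). All 3 kept every mimic library far below every scramble library. The largest rises without overlap were in SIGLEC11, UBTD2 and ATP2B4. SIGLEC11, a sialic acid receptor, measured 2.21, 2.01 and 1.997 FPKM with mimic and 0.914, 0.597 and 0.677 with scramble (0.83). UBTD2 measured 9.68, 11.1 and 10.9 against 5.90, 6.91 and 5.62 (0.70). The entry inside SIGLEC11 is called U3 and that inside UBTD2 has no name, so neither counts among the coding hosts of a SNORD, SNORA or SCARNA. ATP2B4, a plasma membrane calcium pump and host of SNORA77, measured 29.4, 34.1 and 31.2 against 21.98, 22.2 and 17.6 (0.60).

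The snoRNAs inside the hosts could hardly be read in this table. Of 154 snoRNA genes of GENCODE 29 inside the hosts 133 were listed at 0 in all libraries, as were 745 of the 992 snoRNA and scaRNA genes in the table. Of the 59 that overlap an exon of their host 58 were at 0, whereas of 24 that lie wholly in an intron of a host other than SNHG14 6 were at 0 and 18 had a value. The sources used here do not give how reads over 2 genes were counted. The following 4 are box C/D and H/ACA snoRNAs of hosts described above, 5′ to 3′ from GENCODE 29 on GRCh38, with the box C TGATGA and box D CTGA, or the ACA box, in capitals where those exact letters were found. Only the CTGA is marked in SNORD93, since the exact box C letters were not found in it.
SNORD1B in SNHG16 (chr17:76561109-76561192, plus strand): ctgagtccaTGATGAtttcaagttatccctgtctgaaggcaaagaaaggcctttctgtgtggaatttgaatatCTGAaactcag
SNORD12C in ZFAS1 (chr20:49278940-49279028, plus strand): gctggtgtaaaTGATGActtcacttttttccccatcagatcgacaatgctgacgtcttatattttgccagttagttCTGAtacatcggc
SNORD93 in SNHG26 (chr7:22856613-22856686, plus strand): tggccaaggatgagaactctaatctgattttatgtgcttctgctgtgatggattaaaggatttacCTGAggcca
SNORA26 in DANCR (chr4:52713249-52713370, plus strand): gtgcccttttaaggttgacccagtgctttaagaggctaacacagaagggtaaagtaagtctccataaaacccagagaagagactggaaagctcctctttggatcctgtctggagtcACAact
Of 17 snoRNAs that could be tested 1 fell, beside 16.8% of all tested genes, and none rose by limma or voom (0 at an unadjusted p under 0.05), beside 18.7%. The 1 was SNORD99 in SNHG12 (5.27 ± 0.645 FPKM with mimic, 7.01 ± 1.03 with scramble, log2 -0.35, adjusted p = 0.036). It rested on 18 to 32 reads per library, and its highest mimic value (5.99 FPKM) nearly touched its lowest scramble value (6.03 FPKM). SNORD12C (-0.33, adjusted p = 0.053), SNORA26 (-0.52, adjusted p = 0.185) and SNORD93 (-0.69, adjusted p = 0.082) did not pass, and SNORD1B was at 0.05. These values rested on 0 to 196 reads per library, in which unspliced host RNA and the snoRNA itself cannot be told apart.

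Most hosts of box C/D and of box H/ACA snoRNAs fell, whereas among all tested genes 16.8% fell and 18.7% rose, with a median of 0.0025. By the snoRNA genes annotated inside them, 10 of 11 tested hosts with box C/D names alone fell (median -0.41, SNHG19 being the exception), 7 of 9 with box H/ACA names alone fell (median -0.41) and both hosts of both kinds fell (median -0.28). Entries without such a name were left aside. Of the 2 hosts of scaRNAs, guides that act in Cajal bodies, SNHG10 fell and SNHG20 did not pass. Of 10 hosts with 1 snoRNA gene 8 fell (median -0.42), and of 14 with at least 2 genes 12 fell (median -0.33). GAS5 has no snoRNA gene inside it in GENCODE 29 and was left out of these counts, although RefSeq has 11 entries there. These splits were not tested.

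The RNAs of proteins that make snoRNAs into particles were lower in part, and no protein was measured. Of 12 tested genes of box C/D snoRNP assembly 9 fell (75%, beside 16.8% of all tested genes) and 0 rose (beside 18.7%; 9 and 0 at an unadjusted p under 0.05, and 9 and 0 with voom), with a median of -0.30. RUVBL1, an ATPase of the R2TP chaperone, fell from 22.5 ± 0.632 to 12.5 ± 0.131 FPKM (-0.79, adjusted p = 1.7e-05), the assembly factor ZNHIT6 fell by 0.71, RRP9, a U3 protein, by 0.46 and the core protein NOP56 by 0.33 on the log2 scale. FBL, the methyltransferase, NOP58 and SNU13, core proteins named after their values were seen, changed by -0.29, -0.39 and -0.25. Of 6 box H/ACA genes NAF1 (-0.36) and DKC1, the pseudouridine synthase (-0.28), fell, while NHP2 and NOP10 (each -0.13) did not pass, and none rose by limma or voom (0 at an unadjusted p under 0.05). NOP56, NOP58 and DKC1 are themselves snoRNA hosts.

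Among factors that act on the host RNA the shares called were nearer to those of all tested genes (16.8% lower, 18.7% higher). Of 18 tested genes of nonsense-mediated decay 5 fell (27.8%) and 2 rose (11.1%), with a median of -0.05, with PNRC2, a decapping cofactor, at 0.48 and UPF3A at 0.20, and SMG9 at -0.32 and RBM8A, of the exon junction complex, at -0.23. Of 16 genes that regulate 5′TOP mRNAs 3 fell (18.8%) and 2 rose (12.5%), shares near those of all genes, with a median of -0.05. The 4 with the smallest p were RPTOR, the mTORC1 subunit, at -0.62, TSC1, which restrains mTORC1, at 0.34, EIF4EBP2 at 0.24 and RPS6KB1, the ribosomal protein S6 kinase, at -0.18. Of 10 genes that debranch introns or trim snoRNA ends TOE1 (-0.31) and XRN2 (-0.23) fell and none rose, while EXOSC3 (-0.14) and MTREX (-0.16) did not pass. At an unadjusted p under 0.05 that list had 4 lower and 0 higher with limma, and voom called 2 lower and 1 higher. Of 8 genes of snoRNA transport, capping and Cajal bodies 1 fell (12.5%) and 2 rose (25%), again near those shares. COIL (0.21) and PHAX (0.23) rose and WRAP53 (-0.20) fell, with TGS1, which caps some snoRNAs, at -0.16 not past the test. Several of the smaller changes lay close to the threshold. For UPF3A the adjusted p reached 0.0843 and the call ended when mimic replicate 1 or 2, or scramble replicate 2 or 3, was dropped, with log2 fold changes of 0.16 to 0.23 over the libraries left out in turn. For RPS6KB1 it reached 0.0775, with mimic replicate 1 or 3, or scramble replicate 1 or 2, dropped (-0.20 to -0.16). PHAX lost it without mimic replicate 1 or 2 (up to 0.0559), WRAP53 without mimic replicate 3 or scramble replicate 1 (up to 0.0536) and EIF4EBP2 without mimic replicate 3 (up to 0.0561 over its alternatives), while EXOSC3 and TGS1 passed without scramble replicate 3 and MTREX without mimic replicate 1. All 6 lists together had 22 of 70 lower and 6 higher, with a median of -0.09.

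**Figure D4:**
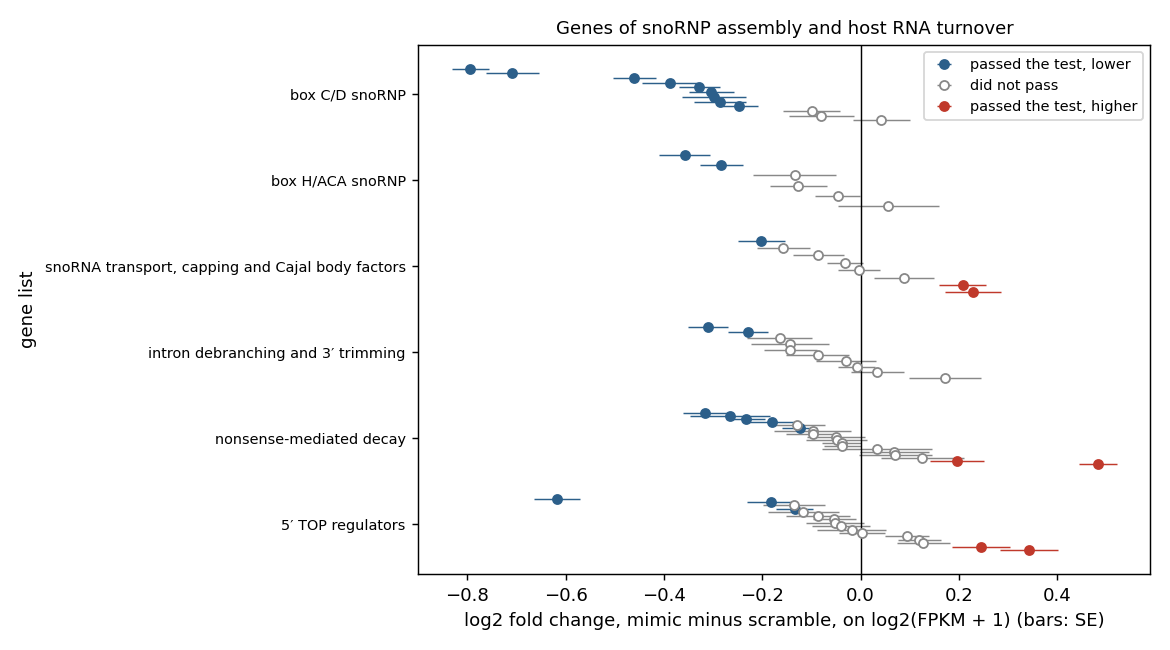
Log2 fold change, mimic minus scramble on log2(FPKM + 1), of each tested gene in 6 lists of snoRNP assembly and host RNA turnover, with its SE as a bar and open points for genes that did not pass the test. In the box C/D list 9 of 12 genes lie lower and passed, while the nonsense-mediated decay and 5′TOP lists spread to both sides of 0.

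Several hosts share exon bases with another gene, and no source used here says whether the counting used strand, so reads of such pairs cannot be told apart. DIPK1B covers 25.2% of the exon bases of SNHG7 from the other strand and rose by 0.49 while SNHG7 fell. ZNFX1 covers 11.1% of those of ZFAS1 from the other strand and rose by 0.47 (72.5 ± 7.17 FPKM with mimic, 52.2 ± 4.48 with scramble). C11orf54, opposite TAF1D at 2.05%, rose by 0.22. RCC1, on the strand of SNHG3 and sharing 5.92% of its exon bases, fell by 0.40 with SNHG3. GLRX5, which covers 20.1% of the exon bases of SNHG10, and MATR3, which covers 14.0% of those of SNHG4, were at -0.03 and -0.09. The MATR3 entry used here (ENSG00000280987) averaged 0.547 FPKM over the 6 libraries, just over the filter, so its value says little. MCMDC2 covers 29.3% of the exon bases of SNHG6 and EPB41L4A 49.6% of those of EPB41L4A-AS1. Both partners were close to 0, with means over the 6 libraries of 0.0153 FPKM for MCMDC2 and 0.0089 FPKM for EPB41L4A. SNHG16 shares 30.6% of its exon bases with a coding gene on the other strand that is not analysed here. What share of the reads counted for SNHG16 this concerns is not known, so its level and change are uncertain.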

How the data were processed

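RNA of 6 libraries, 3 per group, was sequenced. HISAT2 2.1.0, Trimmomatic 0.39, DESeq2 1.26.0 and featureCounts 2.0.1 are named with build GRCh38, per the submitters' processing notes. No source used here gives the annotation, counting options or FPKM formula. FPKM values per gene and library are those the authors deposited. Per the file headers, the authors' deposited comparison table gives a mean normalized signal, log2 fold changes, a test statistic (a score) and p-values of 401 genes. In all 401 the statistic had the opposite sign to the log2 fold change, so the table does not settle its own direction. Direction was taken from the FPKM values, where mimic minus scramble had the sign of the log2 fold change in all 401.

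FPKM values are not counts, so the values were tested on the log2(FPKM + 1) scale in limma 3.58.1 under R 4.3.3, with its variance trend and the group as the only term. The 12912 genes whose mean reached 0.5 FPKM entered. It was tested on simulated data. FPKM times GENCODE 29 exon length gave whole reads (tolerance 0.02) for 96.5% to 97.0% of low values per library, and voom on these reads was an alternative (5037 genes called, against 4584). Other alternatives were the pseudocount, the filter, the scaling, the variance model, a replicate block and each library left out. Of the 58051 identifiers 57447 matched GENCODE 29.

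The snoRNA host genes, the 6 lists and the tests were chosen with earlier results of these data known. Every tested host is named. Library values are given for the 8 called hosts with the largest change, those that did not pass, the 3 of highest mean, TAF1D and RACK1. Of coding hosts the 3 lowest and 3 highest called without overlap are named, and of each list up to 4 genes with the smallest p.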

Additional observations from a re-analysis of the deposited data

How the results depend on the processing

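Of the 21 snoRNA host genes that fell, 14 kept the call and direction under all of the 18 alternatives that tested them, and no called one changed sign. Between 15 (no filter) and 22 (replicate block) fell, leaving out 1 library gave 17 to 21, and none rose. Calls over all genes also went down, to 3354 in either direction with no filter, against 4584. With 1 library left out 1595 to 1927 of all tested genes fell, against 2167. Besides those named above, SNHG7 and SNHG8 lost the call with no filter (adjusted p = 0.0526 and 0.0584). Of coding hosts 52 passed with no filter, of which 13 rose, and 13 to 16 rose with 1 library left out, against 22. Of all tested genes 1785 to 2071 rose with 1 library left out, against 2417. Among hosts that did not pass, EPB41L4A-AS1 ranged from -0.0878 (without mimic replicate 3) to 0.0702 (without mimic replicate 2), with 0.0353 without scramble replicate 3, and SNHG11 from -0.0010 (without scramble replicate 2) to 0.0534 (without scramble replicate 3). The correlation of deviations between libraries with the same replicate number was -0.06, 0.24 and 0.05, not over 0.1 in every pair, so the numbers were not taken to pair the samples. Mimic replicates 2 and 3 correlated best with the scramble library of their number and mimic replicate 1 with scramble replicate 3. With the replicate block 4609 genes passed, and SNHG19 (adjusted p = 0.0348) did too. Of the list genes, those of box C/D assembly kept 9 lower throughout. Hosts with a mean under 0.5 FPKM were not tested with the filter of 0.5 FPKM. With no filter limma tested the 8 of them above 0 and none passed. SNHG14 was at -0.04 (adjusted p = 0.256) and SNHG25 at -0.21 (adjusted p = 0.341), on a scale that understates changes of such low genes. The tested snoRNAs rested on 0 to 196 reads per library.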

Other observations

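Outside the named hosts, 42 noncoding genes of the annotation with a snoRNA gene on their strand were in the table and 3 could be tested. MIR31HG measured 0.824, 1.69 and 0.671 FPKM with mimic and 2.78, 2.49 and 2.71 with scramble, and fell (log2 -0.86, adjusted p = 0.0053). The mimic libraries were all under the scramble ones, on 24 to 130 reads per library. UBA6-DT (-0.12) and GPRC5D-AS1 (-0.04) did not pass the test. In transcripts rather than promoters, 49 of 306 GENCODE 29 transcripts of the tested hosts (16.0%) began with a C and at least 4 pyrimidines. The share was 2.41% of all 206694, and 15 of the 25 tested hosts had at least 1 such transcript. Of the tested hosts without a RefSeq start, SNHG6 had 3 of 5 and SNHG15 had 0 of 10. SNHG11, counted without the run, had 1 of 15.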
